A study of Arabidopsis thaliana with 6 samples.

Results

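APL3 (AT4G39210) and APL4 (AT2G21590) are large subunits of ADP-glucose pyrophosphorylase, the enzyme that makes ADP-glucose, the glucosyl donor for starch. They were chosen as the probe sets that the platform annotation gives to one of these genes alone. Each gene had 1 such probe set, so the members are 2 genes of the 13356 that the annotation names in this way, and 2 of the 22810 probe sets on the array. Transcripts were measured in rosette leaves of Arabidopsis thaliana on 6 Affymetrix ATH1 arrays. Of these, 3 were of pho3, a T-DNA insertion line of the Feldmann collection in the Ws-2 background, and 3 were of wild-type Ws-2 without the insertion. All plants had the same culture, with stratification for 3 days at 4 °C. They had 10 days on half-strength Murashige and Skoog medium holding 1% sucrose and then compost. Growth was at 23 °C and 60% humidity in days of 16 h light and 8 h dark, and leaves were taken at growth stage 6.0. The labels name 1 insertion line and no second allele, and they do not say whether the arrays of a line came from separate plants or from pools, so the spread between them may be technical.

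ADP-glucose pyrophosphorylase is a plastid enzyme built from small subunits, which carry most of the catalytic activity, and large subunits, which tune its response to 3-phosphoglycerate, its activator, and to inorganic phosphate, its inhibitor. Arabidopsis has several large subunits. APL1 is known as the main one of photosynthetic leaves, and APL3 and APL4 are known from sink tissues and as transcripts that sugars induce. The pho3 line is known from earlier work to be impaired in SUC2, which pumps sucrose into the phloem, and its leaves are known to hold back sugars and starch. SUC2 has no named probe set here, so the label of the line was not checked against it.

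Each array gave 1 linear signal per probe set, with a median of 40.4 to 44.2 over the arrays. The 40th percentile of the signals, used below as a lower limit of reliable signal, lay at 26.2 to 28.4. In each line 1 array lay away from the other 2, namely the one labelled pho3 replicate 3 and the one labelled wild type replicate 1. The scaled median absolute deviation of log2 differences over the 13983 probe sets tested was 0.272 between these 2 arrays. It was 0.433 and 0.442 for pho3 replicate 3 against pho3 replicates 1 and 2, and 0.477 and 0.470 for wild type replicate 1 against wild type replicates 2 and 3. By this measure both arrays were closer to the other line. The values were 0.346 and 0.368 for pho3 replicate 3 against wild type replicates 2 and 3. They were 0.310 and 0.306 for wild type replicate 1 against pho3 replicates 1 and 2. By Pearson's r of the log2 signals this held for wild type replicate 1 alone, at 0.963 and 0.967 against 0.875 and 0.863 with its own line. For pho3 replicate 3 the r was 0.929 and 0.934 with its own line, against 0.924 and 0.907 with wild type replicates 2 and 3. All groups below follow the labels. The tests of APL3 and APL4 are given with all 6 arrays, without wild type replicate 1, without pho3 replicate 3 and without both.

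APL3 and APL4 both had a higher mean in pho3 leaves, and for both the array labelled wild type replicate 1 read among the pho3 arrays. The APL3 signal was 541, 549 and 256 on pho3 replicates 1, 2 and 3. On wild type replicates 1, 2 and 3 it was 397, 99.3 and 56.3. The groups overlapped, because wild type replicate 1 lay above pho3 replicate 3, while wild type replicates 2 and 3 lay below every pho3 array. The APL4 signal was 458, 488 and 216 on pho3 replicates 1, 2 and 3. On wild type replicates 1, 2 and 3 it was 372, 16.3 and 16.1. The order of the arrays was close to that for APL3 and the groups again overlapped at wild type replicate 1. On wild type replicates 2 and 3, APL4 lay under the 40th percentile of its array, where a level is only an upper bound, whereas APL3 was above it on all 6 arrays. Neither gene was thus among the 5.31% of probe sets tested whose 3 pho3 signals all lay above the 3 wild-type signals. In whole leaves, more RNA per cell and more cells that hold the transcript cannot be told apart.

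**Figure D1:**
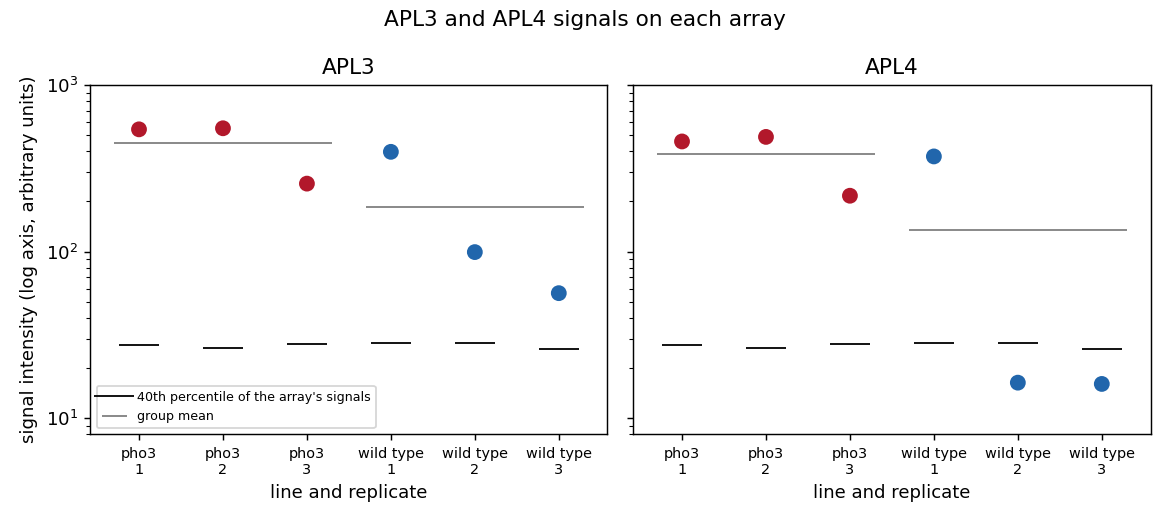
Signal intensity of APL3 and APL4 (log axis, arbitrary units) on each of the 3 pho3 and 3 wild-type arrays, with grey lines for arithmetic group means and short black bars for the 40th percentile of each array. For both genes wild type replicate 1 sits above pho3 replicate 3, and for APL4 wild type replicates 2 and 3 sit at 16.3 and 16.1, under the black bars.

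The first comparison set pho3 against wild type over all 6 arrays. The mean APL3 signal was 449 ± 167 on the pho3 arrays and 184 ± 185 on the wild-type arrays (SD, n = 3 each). Its log2 difference, pho3 minus wild type, was 1.70 (SE 0.71, 95% interval 0.02 to 3.38), a ratio of geometric means of 3.25. For APL4 it was 387 ± 149 on the pho3 arrays and 135 ± 206 on the wild-type arrays (SD, n = 3 each). Its log2 difference was 2.98 (SE 1.19, 95% interval 0.16 to 5.81), a ratio of 7.91 that rests on 2 wild-type signals under the 40th percentile. The unadjusted p of limma was 0.0477 for APL3 and 0.0412 for APL4. After Benjamini-Hochberg adjustment over all 13983 probe sets it was 0.375 for each, so neither passed the threshold of 0.05. No probe set passed it in either direction (0% higher and 0% lower), and before adjustment 807 probe sets (5.77%) had a p under 0.05 with a higher mean in pho3 and 678 (4.85%) with a lower one. By size of the difference APL4 was number 53 and APL3 number 229 from the top of the 13983 probe sets, where the median difference was -0.0015.

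The spread inside the wild-type group was large for both genes. The SD of the log2 signals was 0.65 over the pho3 arrays and 2.61 over the wild-type arrays for APL4. For APL3 it was 0.63 over the pho3 arrays and 1.45 over the wild-type arrays. Over all probe sets tested the median SD was 0.22 in pho3 and 0.24 in wild type. Only 66 of the 13983 probe sets had a larger SD than APL4 among the wild-type arrays, and 286 had a larger one than APL3. Wild type replicate 1 lay 4.52 above the mean of wild type replicates 2 and 3 for APL4 on the log2 scale, and 2.41 above it for APL3. Against pho3 replicates 1 and 2 it lay lower, with log2 differences of -0.30 and -0.39 for APL4 and of -0.45 and -0.47 for APL3. Inside pho3, replicate 3 lay below the mean of replicates 1 and 2 by similar amounts, with log2 differences of -1.13 for APL4 and -1.09 for APL3.

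Without wild type replicate 1, both genes were higher in pho3 and passed the threshold. That array was singled out by its signals in these same data. Leaving it out takes away the highest wild-type signal of both genes, so the p-values of this fit are a description. APL3 rose 5.67-fold (log2 difference 2.50, SE 0.40, adjusted p = 0.0253 in limma). APL4 rose at least 13.3-fold, taking the 40th percentile of each array as its level on wild type replicates 2 and 3. From the signals as measured its log2 difference was 4.49 (SE 0.35, limma adjusted p = 0.00449). On the arrays of this fit APL4 reached the 40th percentile on pho3 arrays alone. Its SE, its p and its rank by p thus rest on 2 wild-type signals under that percentile. In that fit 4.61% of the 13983 probe sets were higher and 0.837% lower, and APL4 was number 18 and APL3 number 271 by p. All 3 pho3 arrays lay above wild type replicates 2 and 3 for both genes. The single ratios of a pho3 array to wild type replicate 2 or 3 ran from 2.58 to 9.76 for APL3. For APL4 they ran from 13.2 to 30.4 as measured. Without pho3 replicate 3 alone the log2 differences were 2.06 for APL3 and 3.36 for APL4. Without both arrays they were 2.87 and 4.87 (limma adjusted p = 0.00164 and 0.000199). That fit keeps the arrays most unlike each other, and in it 18.2% of the probe sets tested were higher and 16.5% lower. Its p-values are thus a description too, and that of APL4 again rests on 2 wild-type signals under the 40th percentile. Leaving out any array other than wild type replicate 1 gave a log2 difference of 1.09 to 2.06 for APL3 and 2.22 to 3.36 for APL4, and neither gene passed (limma adjusted p from 0.193 to 0.733 for APL3 and from 0.204 to 0.733 for APL4).

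**Figure D2:**
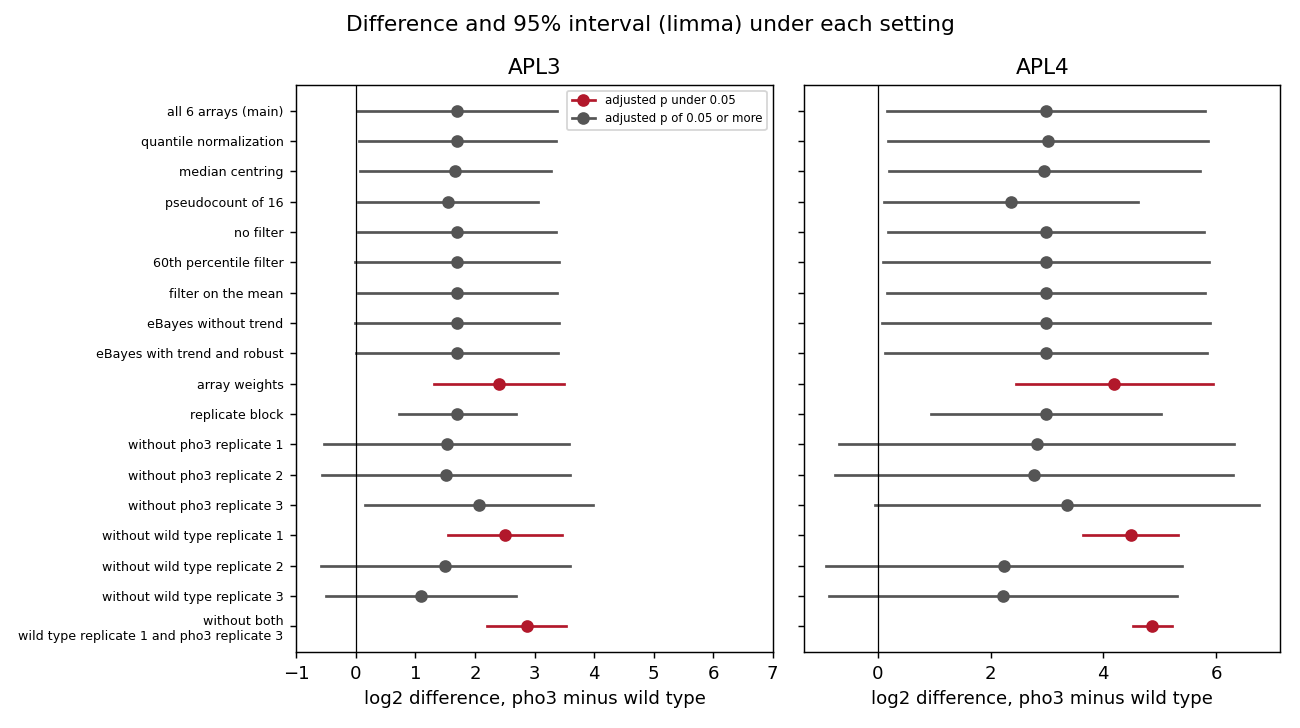
Log2 difference of APL3 and APL4, pho3 minus wild type (points), with limma's 95% interval (lines) for all 6 arrays and for each of the other settings tried, red where the adjusted p was under 0.05. All points are above 0, from 1.09 to 2.87 for APL3 and from 2.22 to 4.87 for APL4, and the red ones are the fits that leave out or down-weight wild type replicate 1.

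The second comparison asked whether the subunits differed by unequal amounts between the lines. For this the log2 signal of APL3 was taken from that of APL4 on each array, and only its change between arrays is read, since 2 probe sets do not share a scale. The value was -0.24, -0.17 and -0.24 on pho3 replicates 1, 2 and 3. It was -0.09, -2.60 and -1.81 on wild type replicates 1, 2 and 3. The pho3 arrays and wild type replicate 1 were thus close to each other, and wild type replicates 2 and 3 were lower. Between the lines the difference was 1.28, with a mean of -0.22 ± 0.04 over the pho3 arrays and -1.50 ± 1.28 over the wild-type arrays (SD, n = 3 each; exact permutation p = 0.4, two-sided, where 3 against 3 arrays cannot go below 0.1). With APL4 held at no less than the 40th percentile of each array, it was 0.78 (exact permutation p = 0.4). Without wild type replicate 1 it was 1.99, or 1.24 with APL4 held at no less than the 40th percentile (exact permutation p = 0.1 for each, the smallest that 3 against 2 arrays allow). The difference between the subunits was therefore not shown to exceed the spread between arrays. Between wild type replicates 2 and 3, APL3 differed by 0.82 on the log2 scale and APL4 by 0.03, although both APL4 signals were under the 40th percentile.

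Signs of RNA quality moved with these signals in 1 of 6 control ratios. Control probe sets on the array read the 3-prime and the 5-prime ends of a few transcripts, and degraded RNA or short labelling products raise the ratio of 3-prime to 5-prime signal. For the first actin pair this ratio was 4.75, 5.24 and 3.46 on pho3 replicates 1, 2 and 3. It was 4.23, 2.18 and 2.26 on wild type replicates 1, 2 and 3. Wild type replicate 1 again lay above pho3 replicate 3 and the other wild-type arrays below every pho3 array, as for APL3 and APL4. The log2 difference was 0.68 (exact permutation p = 0.2, two-sided) and 0.99 without wild type replicate 1 (exact permutation p = 0.1). The other 5 pairs (a second actin pair, GAPDH and ubiquitin) differed by -0.06 to 0.05 on the log2 scale. The part of the actin ratio in the APL3 and APL4 results was not tested.

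**Figure D3:**
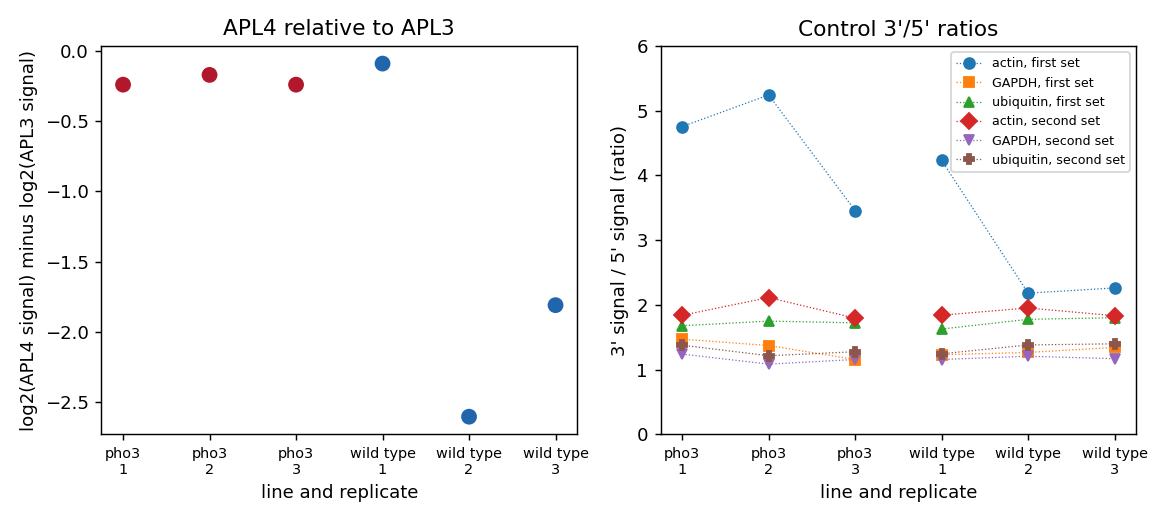
Left, the log2 signal of APL4 minus that of APL3 on each array, red for pho3 and blue for wild type. Right, the ratio of 3-prime to 5-prime signal for 6 control pairs on the same arrays. Wild type replicate 1 sits with the pho3 arrays at -0.09 on the left and at 4.23 for the first actin pair on the right, while the other 5 control pairs stay between 1.08 and 2.11.

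The tissue label was checked against markers. Of 13 leaf mesophyll genes listed, 6 had a named probe set and all were far above the 40th percentile. Their summed signal was 10265 to 14117 on the pho3 arrays and 12472 to 16203 on the wild-type arrays. All 6 had a lower mean in pho3, with log2 differences from -0.60 for SBPASE, a Calvin cycle phosphatase, to -0.23 for RCA, rubisco activase. None passed limma's test with or without wild type replicate 1. Of 8 root genes 2 were named, PYK10 and EXPA7, with a summed signal of 33.7 to 38.8 in pho3 and 22.9 to 55.0 in wild type. Both lay under the 40th percentile on every array except EXPA7 at 38.0 on wild type replicate 2, and neither was tested. The guard cell gene FMA read 40.9 to 50.2 in pho3 and 48.6 to 63.7 in wild type. The 11 seed, 7 flower, 6 phloem and 6 xylem genes listed had 0 named probe sets, so seed or flower tissue, where large subunits of the sink type are also known, was not checked. The part of leaf cell content in the APL3 and APL4 results was not tested.

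The few other starch synthesis genes with a named probe set had smaller differences than APL3 and APL4. Of the 6 genes of ADP-glucose pyrophosphorylase, the leaf large subunit APL1, the large subunit APL2, the small subunit ADG1, also called APS1, and APS2 are unnamed and have no value. Among 15 other genes of starch synthesis, 3 were measured, of which 1 was higher and 2 lower, with a median log2 difference of -0.15. None passed limma's test with or without wild type replicate 1. SBE2.2, a starch branching enzyme that shapes amylopectin, had signals of 698, 722 and 471 on pho3 arrays, against 579, 362 and 346 on wild-type arrays. Wild type replicate 1 again lay above pho3 replicate 3. Its log2 difference was 0.57 (SE 0.26), and 0.81 without wild type replicate 1 (limma adjusted p = 0.0753). The other list members AT5G65685 and AT5G39790 differed by -0.15 and -0.24.

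In starch breakdown 3 of 22 genes were measured and all had higher means in pho3. Their median log2 difference was 0.10. AMY1, an alpha-amylase that cuts inside glucan chains, read 127, 153 and 78.1 on pho3 arrays, against 137, 32.0 and 29.9 on wild-type arrays. Here too wild type replicates 2 and 3 lay below every pho3 array. Its mean difference on the log2 scale was 1.18 (SE 0.60, limma adjusted p = 0.375), and without wild type replicate 1 it rose by 1.89 (limma adjusted p = 0.0225). The latter fit called 4.61% of all probe sets tested higher and 0.837% lower. It leaves out the highest wild-type signal of AMY1, so that p is a description. PWD, which phosphorylates the starch granule after the first glucan dikinase, read 224 to 368 in pho3 and 148 to 390 in wild type. DPE1, the plastid disproportionating enzyme, read 93.6 to 178 in pho3 and 78.7 to 173 in wild type. Both overlapped between the lines, with log2 differences of 0.10 for PWD and 0.08 for DPE1. Without wild type replicate 1 the difference was 0.17 for each (limma adjusted p = 0.804 for PWD and 0.789 for DPE1).

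Of the genes listed for carbon supply to the plastid or for sucrose cleavage and transport, none passed limma's test over all 6 arrays. Without wild type replicate 1, cwINV6 alone passed, in a fit where 4.61% of all probe sets tested were higher and 0.837% lower. That fit drops the highest wild-type signal of cwINV6, so its pass is a description. Of 9 plastid transport genes 1 was measured, AT5G17630, at a log2 difference of -0.69 (SE 0.26, adjusted p = 0.375 in limma), and of -0.83 without wild type replicate 1 (limma adjusted p = 0.0993). Of 26 genes of sucrose cleavage and transport 4 were measured, 2 with a higher and 2 with a lower mean, and a median log2 difference of -0.01. The gene cwINV6, annotated as a fructan exohydrolase of the cell wall invertase family, read 306, 411 and 139 on pho3 arrays, against 260, 50.9 and 34.0 on wild-type arrays. Its log2 difference was 1.76 (SE 0.78, limma adjusted p = 0.375), and it rose 6.24-fold without wild type replicate 1 (limma adjusted p = 0.0296). SWEET11, a sucrose exporter ahead of phloem loading, differed by 0.41, the sucrose phosphate synthase ATSPS4F by -0.62 and AT1G62660 by -0.43. None of these 3 passed with or without wild type replicate 1.

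Genes of anthocyanin synthesis that sugars are known to induce had differences of the same order as APL3 and APL4. Of 13 listed, 5 were measured, and all 5 had higher means in pho3 (median log2 difference 2.76). None passed limma's test over all 6 arrays, and all 5 passed without wild type replicate 1, against 4.61% of the probe sets tested, with a median of 4.13. Leaving out that array takes away the highest wild-type signal of all 5 genes, so these passes are a description. Of these genes, AT4G14090 and AT5MAT lay under the 40th percentile on wild type replicates 2 and 3, and UF3GT on wild type replicate 3. In the fit without wild type replicate 1, AT4G14090 and AT5MAT thus reached that percentile on pho3 arrays alone. Their p, and in part that of UF3GT, rests on signals under it. With signals held at no less than that percentile, the median was 2.64 over all 6 arrays and 3.95 without wild type replicate 1. Without that array, AT4G14090 was at least 18.8-fold higher and AT5MAT at least 2.63-fold higher. DFR, dihydroflavonol reductase, differed by 3.12 (SE 1.22) and UGT78D2, a flavonoid glucosyltransferase, by 1.70 (SE 0.69), and both were above the 40th percentile on every array. Of 12 genes that sugars are known to repress, 3 were measured. MCCA and MCCB, subunits of methylcrotonyl-CoA carboxylase, and IVD, isovaleryl-CoA dehydrogenase, all of leucine breakdown, differed by 0.16, 0.03 and 0.24. None of these 3 passed with or without wild type replicate 1. These lists were assembled with earlier results of these data known and their counts are a description.

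**Figure D4:**
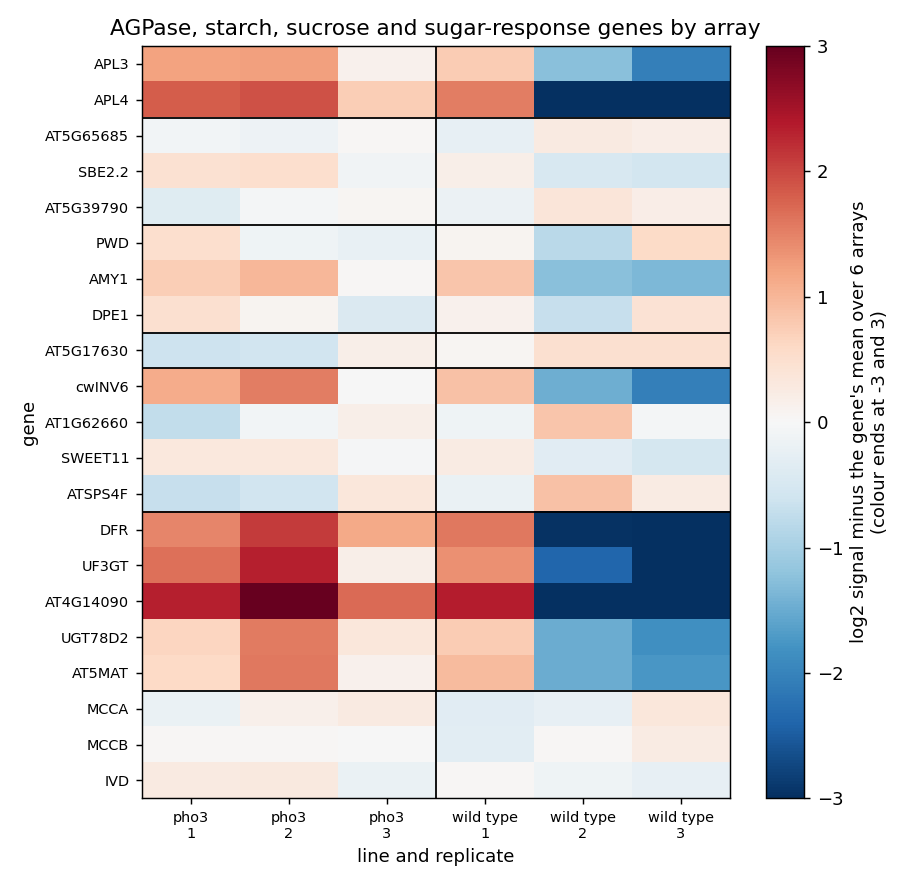
Log2 signal of each measured gene of the lists minus its mean over the 6 arrays, red for higher and blue for lower, with pho3 replicates 1 to 3 left of wild type replicates 1 to 3. Horizontal lines part, from the top, ADP-glucose pyrophosphorylase, starch synthesis, starch breakdown, plastid transport, sucrose cleavage and transport, anthocyanin and sugar-repressed genes. APL3, APL4, AMY1, cwINV6 and the 5 anthocyanin genes are blue on wild type replicates 2 and 3 and red on wild type replicate 1. The colour is at its end for AT4G14090 on wild type replicates 2 and 3, and for APL4, DFR and UF3GT on wild type replicate 3.

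The genes most like APL3 and APL4 over the 6 arrays were sought among 421 other single-gene probe sets tested that ranged over at least 2 on the log2 scale. Likeness was Pearson's r of the log2 signals over the 6 arrays, which share the contrast of wild type replicates 2 and 3 with the rest, and it is given as a description. For APL3 the closest was AT4G19370 (r = 0.999), followed by AT3G60420, CHI, AT2G39210 and AT1G43910, the last at r = 0.997. CHI is AT2G43570, annotated as a putative chitinase. It read 775, 976 and 374 on pho3 arrays, against 630, 109 and 51.4 on wild-type arrays. For APL4 the closest was AT3G10320 (r = 0.9995), then AT5G42050, AT5G17850, AT5G42250 and AT1G67360, the last at r = 0.998. AT5G42050 read 1285, 1337 and 813 on pho3 arrays, against 1157, 231 and 225 on wild-type arrays. Signals were under the 40th percentile on wild type replicates 2 and 3 for AT4G19370, AT3G10320, AT5G17850 and AT5G42250, and on pho3 replicate 3 as well for AT3G10320, so their r and their place in the order rest in part on such signals. These genes were picked for their likeness, and no test of them is given.

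Over the 6 arrays, APL3 and APL4 had an r of 0.974 with each other. The r of APL4 with any gene rests in part on its signals on wild type replicates 2 and 3, which are only upper bounds. Of the listed genes, DFR had an r of 0.994 with APL4 and cwINV6 an r of 0.993 with APL3. Such patterns were common, with r of at least 0.95 for 174 of the 421 genes with APL3 and for 146 with APL4. The most opposed were AT3G56060 for APL3 (r = -0.996) and AT5G66590 for APL4 (r = -0.987). AT5G66590 read 70.2, 81.6 and 131 on pho3 arrays, against 106, 346 and 396 on wild-type arrays, a log2 difference of -1.43.

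**Figure D5:**
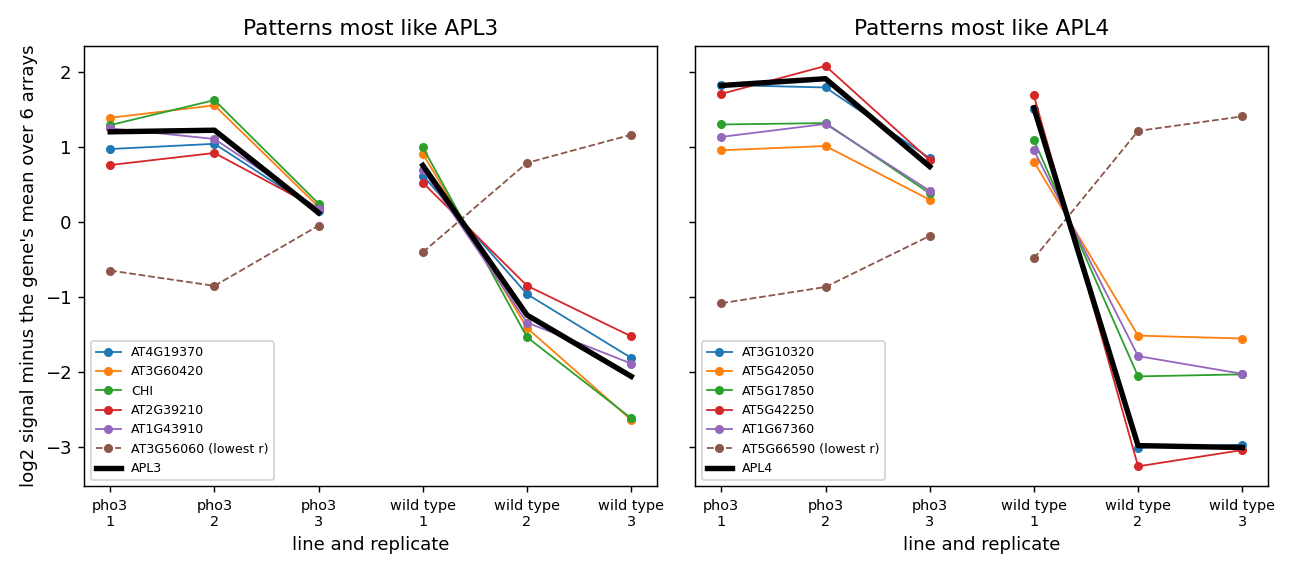
Log2 signal minus the gene's mean over the 6 arrays for APL3 (left, black) and APL4 (right, black), each with the 5 most similar genes (solid) and the most opposed gene (dashed), on pho3 replicates 1 to 3 and wild type replicates 1 to 3. Every solid line is low on wild type replicates 2 and 3. APL3 is lower on wild type replicate 3 than on wild type replicate 2, whereas APL4 is level between them.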

How the data were processed

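Signals were deposited as linear intensities, 1 value for a probe set on an array, made by the authors with MAS5 (no version), per the submitters' processing notes. Every array had a mean of 100.0 once 2% of the values was trimmed from each end, so arrays were already scaled. Detection calls were not used here.

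Arrays were grouped by their titles. Gene tests did not use the 64 control probe sets, and 13983 of the other 22746 reached the 40th percentile of their array on at least 3 arrays. Intensities were log2-transformed without a pseudocount and tested with limma 3.58.1 in R 4.3.3 (eBayes with a trend, two-sided, Benjamini-Hochberg over all probe sets tested, threshold 0.05). The scripts were tested on simulated data. Single values were compared by exact permutation over arrays. Precision is limited by the number of arrays. Figures were drawn with matplotlib 3.10.9 in python 3.11.15.

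Names come from the platform annotation, updated to the RefSeq table of TAIR10.1. It gave 13513 probe sets 1 gene, of which 13436 matched, 503 several, and 8730 were unlisted and stay unnamed. No coordinates or sequences are given, because the build behind the annotation is not stated in the labels used here and no sequence table was used.

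APL3, APL4 and the gene lists were chosen with earlier results of these data known. Named were both genes, every tested list member, and for each gene the 5 most similar and the most opposed patterns. The alternatives were array weights, a replicate block, median centring, quantile normalization, 3 other filters, a pseudocount of 16, 2 other variance priors, leaving out each array, and leaving out wild type replicate 1 and pho3 replicate 3 together.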

Additional observations from a re-analysis of the deposited data

How the results depend on the processing

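APL3 and APL4 were higher in pho3 under all 17 alternatives, and 3 of these put each past the threshold. With array weights, which limma derives from that same grouping and which were smallest at 0.443 for pho3 replicate 3 and 0.367 for wild type replicate 1, the log2 differences were 2.40 and 4.1985 (limma adjusted p = 0.0259 for each). Without both of those arrays they were 2.87 and 4.87 (limma adjusted p = 0.00164 and 0.000199), in a fit that keeps the arrays most unlike each other. Leaving out 1 array gave 1.09 to 2.50 for APL3 and 2.22 to 4.49 for APL4, past the threshold only without wild type replicate 1. The probe sets called were 2237 higher and 2026 lower with array weights (16% and 14.5% of those tested), and 2547 higher and 2305 lower without both arrays (18.2% and 16.5%). They were 0 to 644 higher and 0 to 117 lower with 1 array left out, above 0 only without wild type replicate 1. The causes were not tested.

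The titles share replicate numbers between the lines. The deviations of same-numbered arrays from their group means correlated at 0.388, -0.274 and 0.430. Those of unlike-numbered arrays ran from -0.62 to 0.523, so the numbers were not taken as pairs. With a replicate block APL3 and APL4 kept differences of 1.70 and 2.98, with a smaller SE of 0.40 and 0.82. The unadjusted p of limma was 0.00568 and 0.0117, the limma adjusted p was 0.192 for each, and 0 probe sets were called. The unequal change of APL4 and APL3 ranged from 0.73 to 1.99 with 1 array left out and was 0.82 with the pseudocount of 16. The first actin ratio differed by 0.51 to 0.99 with 1 array left out, which was chosen after seeing the data.

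Of the other named genes, PWD ran from -0.29 to 0.41 with 1 array left out, below 0 if pho3 replicate 1 (-0.12) or wild type replicate 2 was left out. DPE1 ran from -0.24 to 0.32 in the same way, below 0 without the same arrays (-0.14 without pho3 replicate 1), and was 0.41 without both arrays. MCCA ran from 0.04 to 0.37 with 1 array left out and turned to -0.059 without both arrays. MCCB ran from -0.12 to 0.16 with 1 array left out, below 0 without wild type replicate 1, and turned to -0.11 without both arrays and -0.042 with array weights. Of the 321 alternative values of the listed genes other than APL3 and APL4, 283 stayed on the same side of the threshold in the same direction and 30 newly passed it. Those 30 came only from the fits with array weights, without wild type replicate 1 or without both arrays. These fits called from 0.837% to 18.2% of the probe sets tested in a given direction, and the other fits called none. Signals under the 40th percentile, as for APL4 on wild type replicates 2 and 3, limit how well a fold and the p of its test are known. Holding signals at that percentile was chosen after seeing the data.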
